A study of Homo sapiens with 12 samples.

Results

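Respiratory complex I, the NADH:ubiquinone oxidoreductase of the mitochondrial inner membrane, is described here through the nuclear genes of its subunits. The list held 36 genes with NDUF symbols. Of these, 34 had a probe set annotated to 1 gene alone, out of 18404 genes measured in this way, and for a gene with several the one with the highest mean signal was used. NDUFC2 and NDUFS5 lay only on probe sets shared with other genes and are not reported. The genes were listed by function, with earlier results of these data known.

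The samples were cultures of NB4, a human cell line from acute promyelocytic leukemia that all-trans retinoic acid (ATRA) drives toward granulocytes. Knockdown cells expressed an shRNA against HOTAIRM1, a long noncoding RNA of the HOXA cluster, and were 2 replicates with shRNA1 and 1 culture with shRNA2. Control cells were 2 replicates with a scrambled shRNA and 1 culture of wild type NB4. Each kind of cell was measured after 96 hours of 0.5 uM ATRA and untreated, which gave 4 arms of 3 arrays. The shRNA lines were stable lentiviral lines, sorted for GFP and grown from single cells, so that clone and shRNA cannot be told apart within a line. The duplicates are called biological, but whether these were separate clones is not said, and the p-values measure only the spread between these samples. The HOTAIRM1 level was not checked here, since the annotation used names no probe set for it.

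Complex I takes electrons from NADH in its matrix arm, passes them through flavin and iron-sulfur clusters to ubiquinone, and pumps protons through its membrane arm. Its catalysis rests on core subunits, and around them lie accessory subunits that hold the complex together and are needed to assemble it. Maturing neutrophils are known to lose much of their mitochondrial respiration and to live mainly on glycolysis. Values below are log2 signals of 1 probe set a gene, and a difference of 1 is a doubling or a halving. In RNA of whole cultures, fewer cells of a type and less RNA per cell cannot be told apart.

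The array labelled untreated, scrambled replicate 2 stood apart from the rest of its arm. TGM2, a retinoic acid target that encodes a transglutaminase, read 12.86 there, against 7.93 to 8.30 on the other 5 untreated arrays and 13.49 to 13.85 on the 6 ATRA arrays. Its correlation with the other untreated control arrays across genes was 0.979 and 0.986, against 0.993 between those. The 6 measured promyelocyte markers were MPO, ELANE, PRTN3, CTSG, AZU1 and MYB. Their mean log2 level lay between 10.77 and 11.16 on knockdown ATRA arrays and between 11.29 and 11.65 on knockdown untreated arrays. On control arrays it lay between 10.10 and 10.98 after ATRA and between 10.99 and 11.49 untreated. Limma called 2 of the 6 lower with ATRA in knockdown cells and 1 in control cells, and 0 higher. ELANE read 8.88 to 9.20 on ATRA arrays and 8.99 to 9.35 on untreated arrays. Over 7 monocyte markers the mean was 7.22 to 7.37 after ATRA against 6.87 to 7.05 untreated in knockdown cells, and 7.48 to 7.51 against 6.89 to 6.96 in control cells. Of these 7, limma called 3 higher with ATRA in knockdown cells and 4 in control cells, and the part of such markers in the results below was not tested. Lymphoid markers averaged 6.74 to 7.23 over the 12 arrays, and erythroid and megakaryocyte markers 7.15 to 7.36. On the array labelled untreated, scrambled replicate 2, the lymphoid marker CD79A read 10.91, against 7.87 to 8.78 on the other arrays. ITGAM read 10.16 on that array, against 7.31 to 8.56 on the other 5 untreated arrays and 10.38 to 10.97 on the 6 ATRA arrays.

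Complex I transcripts were lower after ATRA in both kinds of cells. Among the 34 genes, limma called 21 lower and 0 higher in knockdown cells at an adjusted p under 0.05, where 14.7% of all genes were called lower and 10.1% higher. In control cells it called 30 lower and 0 higher, where 20.9% of all genes were called lower and 15.2% higher. The median log2 change of the 34 genes was -0.34 in knockdown cells and -0.45 in control cells, against -0.03 and 0.05 over all genes. Leaving out the genes with the lowest means kept all 34 genes and raised these shares. Limma then called 22 of the 34 lower in knockdown cells and 31 in control cells. Of all genes left in, 22.1% and 31.1% were called lower, and their medians were -0.05 and -0.03. The 3 ATRA arrays all lay below the 3 untreated arrays for 25 of the 34 genes in knockdown cells (24.6% of all genes) and for 30 in control cells (23.4% of all genes). Genes called lower in both kinds of cells numbered 20. Upper quartiles of the arrays ran from 9.11 to 9.17 in control cells after ATRA and from 9.23 to 9.28 in the other 3 arms, and the control count was 16 after quantile normalization between arrays (16.7% of all genes). Without the array labelled untreated, scrambled replicate 2, the control count was 26 (20.4% of all genes). Without the shRNA2 ATRA array the knockdown count was 13 (10.9% of all genes). With scrambled and shRNA1 arrays only, 7 were called lower in knockdown cells and 14 in control cells, where 7.69% and 12.1% of all genes were. Of the calls, 11 of 21 in knockdown cells and 22 of 30 in control cells held whichever single array was left out. For these calls, and for the 20 in both kinds of cells, the share of all genes is not given here.

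**Figure D1:**
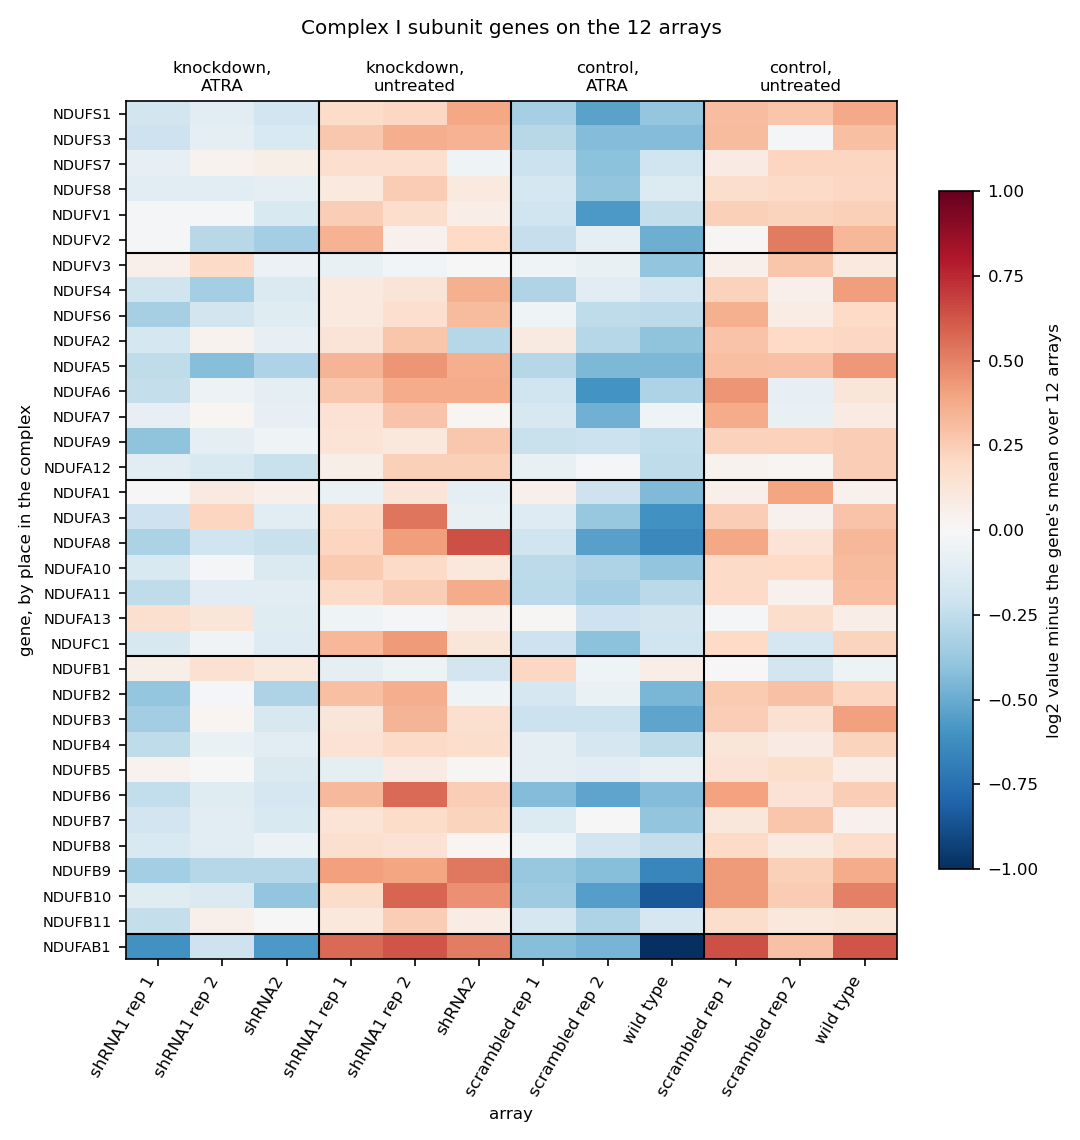
Log2 value minus the gene's own mean over the 12 arrays, for 34 complex I genes in rows grouped by place in the complex and arrays in columns grouped by arm. The ATRA columns are mostly blue (below the mean) and the untreated columns mostly red, while NDUFB1 in the row below the third dividing line runs the other way.

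The core subunits of the matrix arm carry the flavin and the iron-sulfur clusters. Of 6 measured, 3 were called lower in knockdown cells and 6 in control cells. The control call of NDUFV2 was not shared by its second probe set, given below. All 6 changes were below 0 in both kinds of cells, with a median log2 change of -0.33 in knockdown cells and -0.57 in control cells. NDUFS1, the largest of them, stood at 9.66, 9.73 and 9.65 after ATRA in knockdown cells (shRNA1 replicates 1 and 2, then shRNA2), against 10.03, 10.05 and 10.23 untreated. In control cells NDUFS1 stood at 9.51, 9.31 and 9.46 after ATRA (scrambled replicates 1 and 2, then wild type), against 10.15, 10.12 and 10.22 untreated. The ATRA and untreated arrays of NDUFS1 did not overlap in either kind of cell, and it fell by 0.43 in knockdown cells (SE 0.08, adjusted p = 0.00247, limma) and by 0.74 in control cells (SE 0.08, adjusted p = 9.06e-05). NDUFS3, a core subunit near the quinone end of the arm, stood at 11.50, 11.62 and 11.56 after ATRA in knockdown cells, against 11.98, 12.07 and 12.06 untreated. Its control arrays read 11.43, 11.28 and 11.28 after ATRA, against 12.03, 11.70 and 12.01 untreated. NDUFS3 fell by 0.48 in knockdown cells (adjusted p = 0.00304, limma) and by 0.58 in control cells (adjusted p = 0.000664), again with no overlap.

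NDUFS8, which holds iron-sulfur clusters on the path to the quinone, stood at 9.84, 9.84 and 9.85 after ATRA in knockdown cells, against 10.04, 10.20 and 10.04 untreated. Control cells gave 9.77, 9.55 and 9.81 after ATRA, against 10.12, 10.14 and 10.15 untreated. NDUFS8 fell by 0.25 in knockdown cells (adjusted p = 0.0341, limma) and by 0.43 in control cells (adjusted p = 0.00168). The knockdown call was lost when any 1 of the 6 knockdown arrays was left out, with adjusted p between 0.0517 and 0.132. NDUFS7 holds the last cluster before ubiquinone. It stood at 8.80, 8.92 and 8.94 after ATRA in knockdown cells, against 9.05, 9.05 and 8.84 untreated. Its control arrays read 8.67, 8.47 and 8.68 after ATRA, against 8.96, 9.10 and 9.10 untreated. The shRNA2 array was higher after ATRA than before it, and the knockdown change of -0.09 was not called (95% interval -0.29 to 0.10, adjusted p = 0.52, limma), while NDUFS7 fell by 0.45 in control cells (adjusted p = 0.00259).

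NDUFV1 binds NADH and the flavin. It stood at 11.36, 11.35 and 11.22 after ATRA in knockdown cells, against 11.62, 11.55 and 11.44 untreated. In control cells it stood at 11.17, 10.80 and 11.13 after ATRA, against 11.61, 11.59 and 11.61 untreated. The arrays did not overlap in either kind of cell, yet the knockdown change of -0.23 was not called (95% interval -0.44 to -0.01, adjusted p = 0.126, limma), and the control level fell by 0.57 (adjusted p = 0.00107). NDUFV2, its partner in the NADH-oxidising module, stood at 10.48, 10.21 and 10.15 after ATRA in knockdown cells, against 10.84, 10.53 and 10.69 untreated. The control values of NDUFV2 were 10.26, 10.39 and 10.00 after ATRA, against 10.50, 11.01 and 10.82 untreated. Its change was -0.41 in knockdown cells (95% interval -0.73 to -0.09, adjusted p = 0.0632, limma), and it fell by 0.56 in control cells (adjusted p = 0.0117). A second probe set of NDUFV2 changed by -0.47 in knockdown cells (adjusted p = 0.166, limma) and -0.16 in control cells (adjusted p = 0.591). The control call therefore rested on the probe set used. RefSeq names 1 pseudogene of NDUFV2, and whether the probe set used reads the gene or the pseudogene was not tested.

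Accessory subunits of the matrix arm gave 6 of 9 called lower in knockdown cells and 7 of 9 in control cells, with medians of -0.35 and -0.43. NDUFA5, an accessory subunit bound to the middle of the arm, stood at 8.84, 8.67 and 8.79 after ATRA in knockdown cells, against 9.44, 9.54 and 9.46 untreated. Its control values were 8.81, 8.65 and 8.65 after ATRA, against 9.40, 9.39 and 9.53 untreated. NDUFA5 fell by 0.71 in knockdown cells (SE 0.08, adjusted p = 0.000232, limma), to 61.1% of the untreated level, and by 0.74 in control cells (SE 0.08, adjusted p = 8.97e-05). RefSeq names 12 pseudogenes of NDUFA5, and a probe could bind their transcripts. NDUFS4 and NDUFS6, which hold the NADH-oxidising module in place, fell by 0.42 and 0.41 in knockdown cells and by 0.43 and 0.40 in control cells. NDUFA6, NDUFA9 and NDUFA12 were called lower in knockdown cells too, with changes of -0.47, -0.35 and -0.34. In control cells NDUFA6 and NDUFA9 fell by 0.53 and 0.46, and NDUFA12 changed by -0.22 without a call (adjusted p = 0.0862, limma). Single arrays left out ended the knockdown calls of NDUFS4 (2 arrays, adjusted p up to 0.0567, limma), NDUFA6 (4 arrays, up to 0.0804), NDUFA9 (the untreated shRNA2 array, 0.0617) and NDUFA12 (3 arrays, up to 0.0696). A second probe set of NDUFS4 changed by 0.31 in knockdown cells (adjusted p = 0.0682) and -0.07 in control cells (adjusted p = 0.662), so that the 2 probe sets differ in sign in knockdown cells.

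NDUFV3, an accessory subunit of the NADH-oxidising module, went different ways in the lines. It stood at 10.17, 10.31 and 10.06 after ATRA in knockdown cells, against 10.04, 10.09 and 10.12 untreated. Its control arrays read 10.07, 10.04 and 9.72 after ATRA, against 10.17, 10.39 and 10.21 untreated. With arrays matched by line and replicate number, NDUFV3 was higher after ATRA in both shRNA1 replicates. It was lower in shRNA2, both scrambled replicates and wild type cells. The change of 0.10 in knockdown cells was not called (adjusted p = 0.587, limma), and the fall of 0.31 in control cells (adjusted p = 0.0364) was lost without the untreated wild type array (-0.34, adjusted p = 0.0663), the array labelled untreated, scrambled replicate 2 (-0.25, adjusted p = 0.115) or the wild type ATRA array (-0.20, adjusted p = 0.14). NDUFA2 and NDUFA7 completed the group, with changes of -0.12 and -0.20 in knockdown cells, neither called. In control cells NDUFA2 fell by 0.43 (adjusted p = 0.0386), and NDUFA7 changed by -0.35 (adjusted p = 0.0554). The NDUFA2 call was lost without any 1 of 6 arrays, with adjusted p up to 0.139.

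Around the membrane arm next to the matrix arm, 4 of 7 measured accessory subunits were called lower in knockdown cells and 6 of 7 in control cells, with medians of -0.29 and -0.47. NDUFA8, a cysteine-rich subunit facing the intermembrane space, stood at 9.52, 9.64 and 9.61 after ATRA in knockdown cells, against 10.05, 10.25 and 10.48 untreated. Its control arrays read 9.64, 9.29 and 9.19 after ATRA, against 10.22, 9.97 and 10.17 untreated. NDUFA8 fell by 0.67 in knockdown cells (SE 0.13, adjusted p = 0.00331, limma) and by 0.75 in control cells (SE 0.13, adjusted p = 0.00118), and no ATRA array reached an untreated one. NDUFA10, NDUFA11 and NDUFC1 were called lower in both kinds of cells, with changes of -0.29, -0.43 and -0.40 in knockdown cells and -0.56, -0.47 and -0.36 in control cells. NDUFA1, a small subunit needed for assembly and encoded on the X chromosome, changed by 0.06 in knockdown cells (adjusted p = 0.806, limma) and fell by 0.36 in control cells (adjusted p = 0.0484). NDUFA3 changed by -0.25 in knockdown cells (adjusted p = 0.33) and fell by 0.56 in control cells (adjusted p = 0.0217). Without 1 array the calls of NDUFC1 (4 knockdown and 3 control arrays), NDUFA10 in knockdown cells (3 arrays), NDUFA1 (10 arrays) and NDUFA3 (4 arrays) were lost, with adjusted p between 0.0514 and 0.182.

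NDUFA13 is also known as GRIM-19, a name that refers to cell death under retinoic acid and interferon. It stood at 8.72, 8.68 and 8.44 after ATRA in knockdown cells, against 8.52, 8.54 and 8.61 untreated, and its values were chosen for display because of that name. In control cells NDUFA13 stood at 8.57, 8.35 and 8.38 after ATRA, against 8.55, 8.74 and 8.63 untreated. The arrays overlapped in both kinds of cells, and neither the change of 0.06 in knockdown cells (95% interval -0.14 to 0.27, adjusted p = 0.709, limma) nor that of -0.21 in control cells (adjusted p = 0.0998) was called.

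In the far part of the membrane arm, 7 of 11 accessory subunits were called lower in knockdown cells and 10 of 11 in control cells, with a median of -0.34 in both. NDUFB9, a subunit of the LYR motif family that binds acyl carrier protein, stood at 10.66, 10.72 and 10.72 after ATRA in knockdown cells, against 11.41, 11.40 and 11.53 untreated. The control values of NDUFB9 were 10.62, 10.58 and 10.35 after ATRA, against 11.43, 11.24 and 11.37 untreated. It fell by 0.75 in knockdown cells (SE 0.09, adjusted p = 0.000305, limma) and by 0.83 in control cells (SE 0.09, adjusted p = 8.77e-05), with no overlap of ATRA and untreated arrays. NDUFB10, a subunit facing the intermembrane space, stood at 10.02, 10.00 and 9.75 after ATRA in knockdown cells, against 10.33, 10.73 and 10.60 untreated. Its control arrays read 9.79, 9.59 and 9.30 after ATRA, against 10.57, 10.40 and 10.65 untreated. NDUFB10 fell by 0.63 in knockdown cells (SE 0.14, adjusted p = 0.00632, limma) and by 0.98 in control cells (SE 0.14, adjusted p = 0.000334), to 64.7% of the untreated level in knockdown cells and 50.6% in control cells.

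NDUFB6 stood at 9.11, 9.23 and 9.19 after ATRA in knockdown cells, against 9.68, 9.92 and 9.60 untreated. In control cells it stood at 8.92, 8.83 and 8.92 after ATRA, against 9.76, 9.50 and 9.60 untreated. This accessory subunit fell by 0.55 in knockdown cells (SE 0.09, adjusted p = 0.00158, limma) and by 0.73 in control cells (SE 0.09, adjusted p = 0.000216), and its arrays did not overlap. NDUFB2, NDUFB3, NDUFB4 and NDUFB7 were called lower in both kinds of cells, with changes of -0.45 to -0.31 in knockdown cells and -0.59 to -0.31 in control cells. Single arrays left out ended the calls of NDUFB2 (4 arrays in knockdown cells, and the wild type ATRA array in control cells), NDUFB3 (5 arrays in knockdown cells) and NDUFB7 (6 arrays in knockdown and 2 in control cells), with adjusted p up to 0.149. NDUFB8 and NDUFB11 changed by -0.22 and -0.20 in knockdown cells without a call and fell by 0.32 and 0.34 in control cells. NDUFB5 stood at 10.80, 10.77 and 10.62 after ATRA in knockdown cells, against 10.67, 10.85 and 10.78 untreated, and at 10.68, 10.66 and 10.69 in control cells after ATRA, against 10.91, 10.94 and 10.83 untreated. The knockdown arrays of NDUFB5 overlapped (-0.03, adjusted p = 0.809, limma), and its fall of 0.22 in control cells (adjusted p = 0.0403) was lost without any 1 of the 6 control arrays, with adjusted p between 0.0588 and 0.101.

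NDUFB1 was higher after ATRA in 6 of 6 pairs of arrays matched by the line and replicate number of the labels. It alone of the 34 genes had a change above 0 in control cells, while 4 had one in knockdown cells (NDUFB1, NDUFV3, NDUFA1 and NDUFA13). It stood at 8.97, 9.06 and 9.02 after ATRA in knockdown cells, against 8.82, 8.86 and 8.73 untreated, and is described here because of that sign. Its control values were 9.12, 8.87 and 8.98 after ATRA, against 8.91, 8.73 and 8.86 untreated. The difference was 0.21 in knockdown cells (95% interval 0.03 to 0.39, adjusted p = 0.0891, limma) and 0.16 in control cells (95% interval -0.02 to 0.34, adjusted p = 0.149), neither called. After quantile normalization the control difference was 0.26 and was called (adjusted p = 0.0262).

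NDUFAB1 showed the most negative change of the 34 genes in both kinds of cells. It encodes the mitochondrial acyl carrier protein, which sits in complex I and also serves mitochondrial fatty acid synthesis and iron-sulfur cluster assembly. NDUFAB1 stood at 8.92, 9.32 and 8.95 after ATRA in knockdown cells, against 10.09, 10.15 and 10.04 untreated. Its control arrays read 9.10, 9.06 and 8.53 after ATRA, against 10.17, 9.82 and 10.15 untreated. It fell by 1.03 in knockdown cells (SE 0.16, adjusted p = 0.00101, limma), to 49.0% of the untreated level, and by 1.15 in control cells (SE 0.16, adjusted p = 0.000307), to 45.1%. With arrays matched by line and replicate number, wild type cells gave the strongest fall, by 1.62. The other 5 pairs of arrays gave changes of -1.17 to -0.76.

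**Figure D2:**
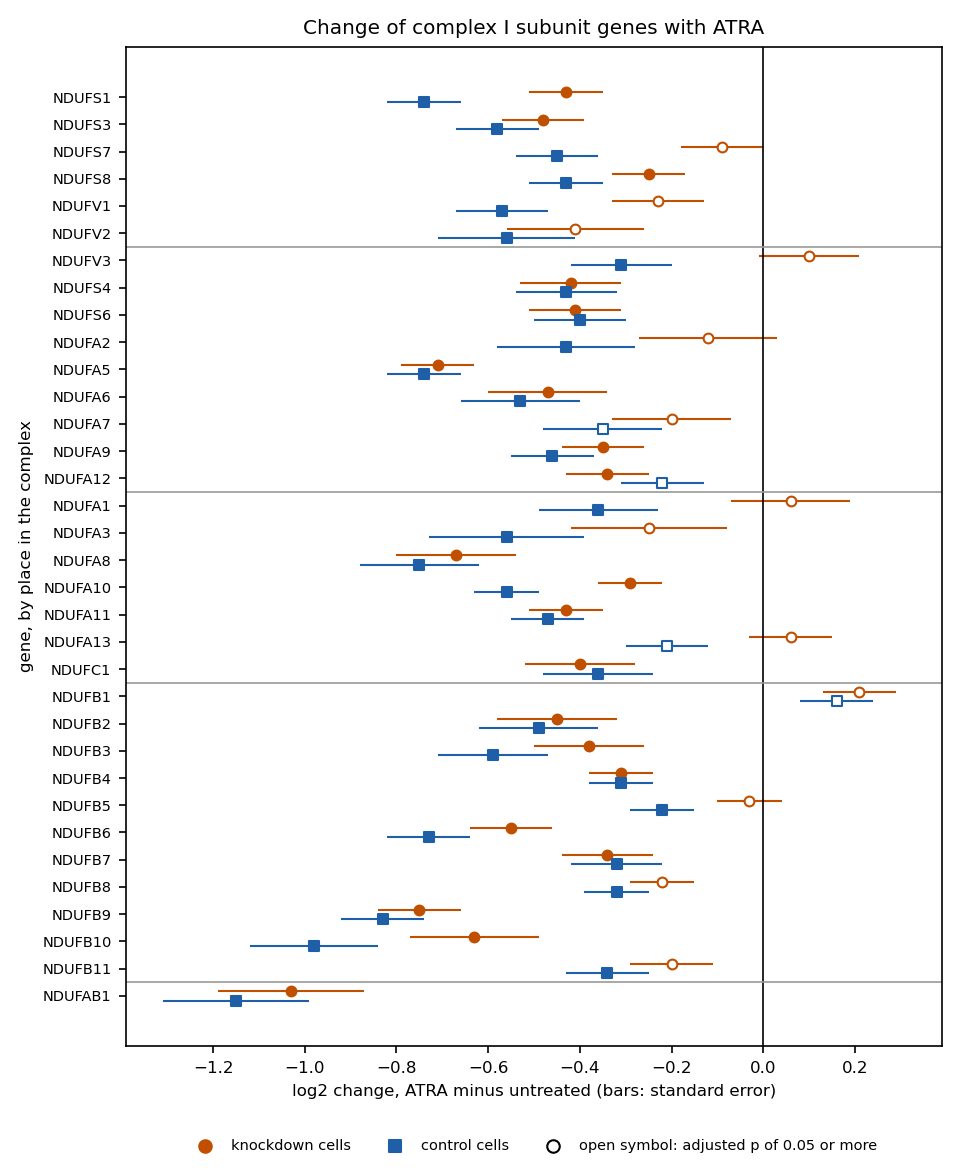
Log2 change with ATRA (ATRA minus untreated, bars of 1 standard error, 3 arrays an arm) of each complex I gene, in knockdown cells (orange circles) and control cells (blue squares), grouped by place in the complex, with open symbols where the adjusted p was 0.05 or more. Most symbols lie left of 0, NDUFAB1 reaches -1.03 and -1.15, and both symbols of NDUFB1 lie right of 0.

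The fall was seen line by line. Lines are the shRNA or wild type cells with the replicate number of the labels, so replicates of the same shRNA count here as separate lines. Each change is the ATRA array minus the untreated array of that line and number, though the numbers were not shown to mark pairs. Of the 34 genes, 29, 31 and 30 were lower after ATRA in shRNA1 replicate 1, shRNA1 replicate 2 and shRNA2 (50.8%, 54.7% and 60.3% of all genes). In scrambled replicate 1, scrambled replicate 2 and wild type cells 31, 33 and 33 were lower (49.1%, 47% and 42.5% of all genes). Median changes were -0.37, -0.32 and -0.30 in the knockdown lines and -0.42, -0.42 and -0.50 in the control lines, while the medians of all genes ran from -0.07 to 0.07 over the 6 lines. Across the 34 genes the changes of knockdown and control cells, which share no arrays, had a Pearson's r of 0.84 and a Spearman's rho of 0.78. Across all 18404 genes r was 0.86 and rho 0.68. These correlations are across genes, which are not independent replicates.

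**Figure D3:**
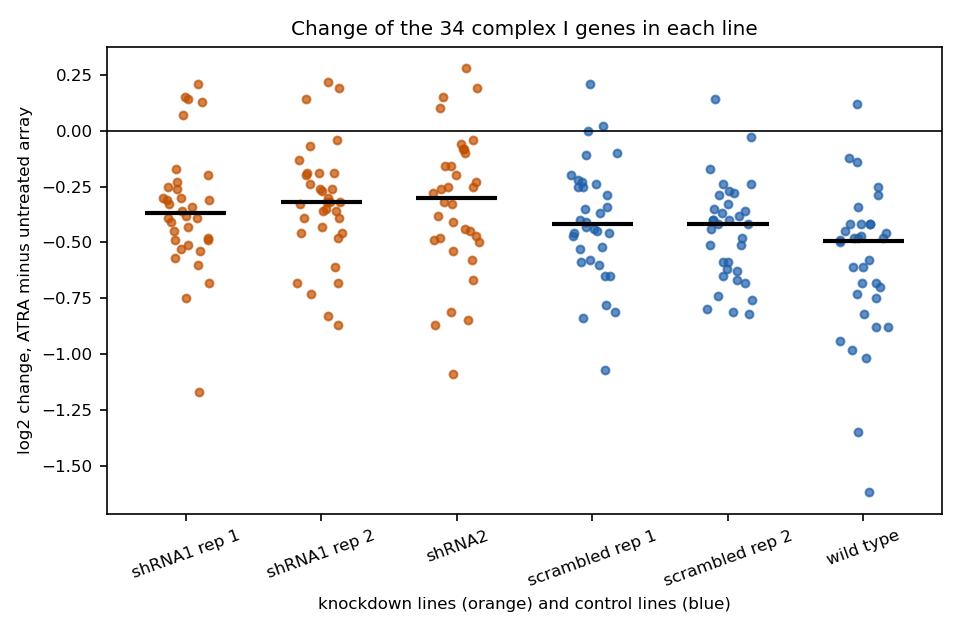
Log2 change of each of the 34 complex I genes (points) in each line, ATRA array minus untreated array, with knockdown lines in orange, control lines in blue and the median as a black bar. All 6 medians lie below 0, from -0.50 in wild type cells to -0.30 in shRNA2 cells, and the lowest point is NDUFAB1 at -1.62 in wild type cells.

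The RefSeq promoters (GRCh38.p14, 250 bases before to 50 after each gene's start) were searched for motifs of factors known to act on respiratory chain genes. All measured genes but NDUFB5 and NDUFB9 had an entry, 32 in all. The NRF1 motif GCGCATGCG, read on both strands, where its matches can overlap, stood in 4 of 32 promoters (12.5%), against 2.1% of 27305 promoters. These were the promoters of NDUFS7, NDUFS6, NDUFA8 and NDUFB4. The ETS motif CCGGAAGT, bound by GABP, stood in 2 (6.25%, against 4.44% of all), those of NDUFS1 and NDUFA13. The YY1 motif AAGATGGC stood in 6 (18.8%, against 3.03% of all), those of NDUFS7, NDUFS4, NDUFA6, NDUFA7, NDUFA9 and NDUFA3. All 6 YY1 matches began 11 to 26 bases after the start, where 51.3% of the matches in all promoters lay after it. The motif holds the letters of a start codon, and whether these matches are start codons was not tested. At least 1 of the 3 motifs stood in 11 promoters (34.4%), against 8.93% of all. The 27305 promoters include genes not measured here and were not matched to the complex I genes by expression or base content. These shares therefore cannot show that the motifs are particular to complex I genes. The median change in control cells was -0.43 with and -0.46 without the NRF1 motif, -0.47 and -0.46 for the ETS motif, and -0.46 and -0.45 for the YY1 motif.

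The 150 bases before the start are shown for 3 genes with a match there and for 3 genes at the ends of the range of change, NDUFAB1 and NDUFB10 with the strongest falls and NDUFB1 with the opposite sign. Capitals mark the NRF1 motif (NDUFS7 and NDUFS6) or the ETS motif (NDUFA13), and each sequence reads 5′ to 3′ on the strand of the gene. The motif begins at position -74 from the start in NDUFS7, where the capitals are the reverse complement, at -46 in NDUFS6 and at -10 in NDUFA13. The windows lie at chr19:1383757-1383906 (plus strand) for NDUFS7, chr5:1801257-1801406 (plus strand) for NDUFS6 and chr19:19516075-19516224 (plus strand) for NDUFA13. Those of the other genes lie at chr16:23596317-23596466 (minus strand) for NDUFAB1, chr16:1959388-1959537 (plus strand) for NDUFB10 and chr14:92121707-92121856 (minus strand) for NDUFB1, and none of the 3 motifs stood in these.
NDUFS7: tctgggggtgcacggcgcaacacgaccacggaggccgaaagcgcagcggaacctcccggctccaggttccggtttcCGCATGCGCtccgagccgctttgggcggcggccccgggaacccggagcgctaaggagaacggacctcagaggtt
NDUFS6: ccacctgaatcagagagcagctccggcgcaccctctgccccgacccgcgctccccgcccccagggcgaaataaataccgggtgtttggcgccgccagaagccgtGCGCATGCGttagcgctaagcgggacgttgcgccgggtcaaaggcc
NDUFA13: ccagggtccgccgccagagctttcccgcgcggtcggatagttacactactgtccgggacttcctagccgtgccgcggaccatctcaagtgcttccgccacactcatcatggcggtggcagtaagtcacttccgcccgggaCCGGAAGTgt
NDUFAB1: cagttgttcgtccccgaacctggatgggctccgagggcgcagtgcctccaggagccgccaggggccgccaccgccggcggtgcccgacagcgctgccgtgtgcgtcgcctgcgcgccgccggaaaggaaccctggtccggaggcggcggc
NDUFB10: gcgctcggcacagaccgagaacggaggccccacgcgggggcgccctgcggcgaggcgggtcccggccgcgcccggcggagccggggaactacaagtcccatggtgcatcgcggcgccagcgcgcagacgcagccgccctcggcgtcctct
NDUFB1: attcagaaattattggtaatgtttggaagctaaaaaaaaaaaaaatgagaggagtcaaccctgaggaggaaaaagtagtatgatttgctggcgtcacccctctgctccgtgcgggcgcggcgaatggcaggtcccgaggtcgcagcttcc

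Knockdown and control cells were next compared before ATRA. None of the 34 genes was called different by limma, as was true of all genes (0% called). An unadjusted p under 0.05 was found for 0 of the 34, against 2.33% of all genes lower and 1.62% higher. The median difference, knockdown minus control, was -0.02, with 18 genes below 0 and 16 above it (51.2% of all genes were above). The smallest p-values belonged to NDUFC1, NDUFB5 and NDUFV3. NDUFC1, a small subunit of the membrane arm, stood at 9.33, 9.42 and 9.12 in untreated knockdown cells, against 9.20, 8.83 and 9.22 in untreated control cells, a difference of 0.21 (95% interval -0.05 to 0.46, adjusted p = 0.999, limma). The low control value was that of the array labelled untreated, scrambled replicate 2. NDUFB5 differed by -0.13 (95% interval -0.29 to 0.03) and NDUFV3 by -0.18 (95% interval -0.41 to 0.05), both with an adjusted p of 0.999. For NDUFV3 all 3 knockdown arrays lay below all 3 control arrays, as happened for 4.04% of all genes. Over the 34 genes the 95% intervals together ran from -0.51 (NDUFA2) to 0.47 (NDUFA6).

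After ATRA, complex I genes mostly read somewhat higher in knockdown than in control cells, but none passed the test. The median difference was 0.16, against -0.03 over all genes, and 30 of 34 differences were above 0, as were 45.3% of those of all genes. Leaving out the genes with the lowest means kept all 34 genes, with a median of 0.16. The median over all genes left in was then above 0 too, at 0.05. Limma called 0 of 34 (0.0598% of all genes were called in either direction). Without the array labelled untreated, scrambled replicate 2, it again called 0 of 34, while 1.53% of all genes were called lower and 2.28% higher, and with array weights 0 of 34, against 1.7% lower and 2.08% higher. Of the 34 genes, 8 had an unadjusted p under 0.05, each with a higher value in knockdown cells (12% of all genes). The 3 knockdown arrays lay above the 3 control arrays for 10 of the 34 genes (14.3% of all genes), 5 of them core subunits of the matrix arm. NDUFS1 had the smallest p, with ATRA values of 9.66, 9.73 and 9.65 in knockdown cells against 9.51, 9.31 and 9.46 in control cells, a difference of 0.25 (SE 0.08, 95% interval 0.08 to 0.42, adjusted p = 0.0828, limma). NDUFS7 differed by 0.28 (95% interval 0.08 to 0.47, adjusted p = 0.0861) and NDUFB6 by 0.29 (95% interval 0.08 to 0.50, adjusted p = 0.0924), and neither had overlapping arrays. The greatest difference, 0.37 for NDUFB10 (95% interval 0.06 to 0.67, adjusted p = 0.121), went with overlapping arrays. The lower upper quartiles of the control ATRA arrays, given above, move with this contrast, and after quantile normalization the median difference was 0.09 with 23 genes above 0.

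**Figure D4:**
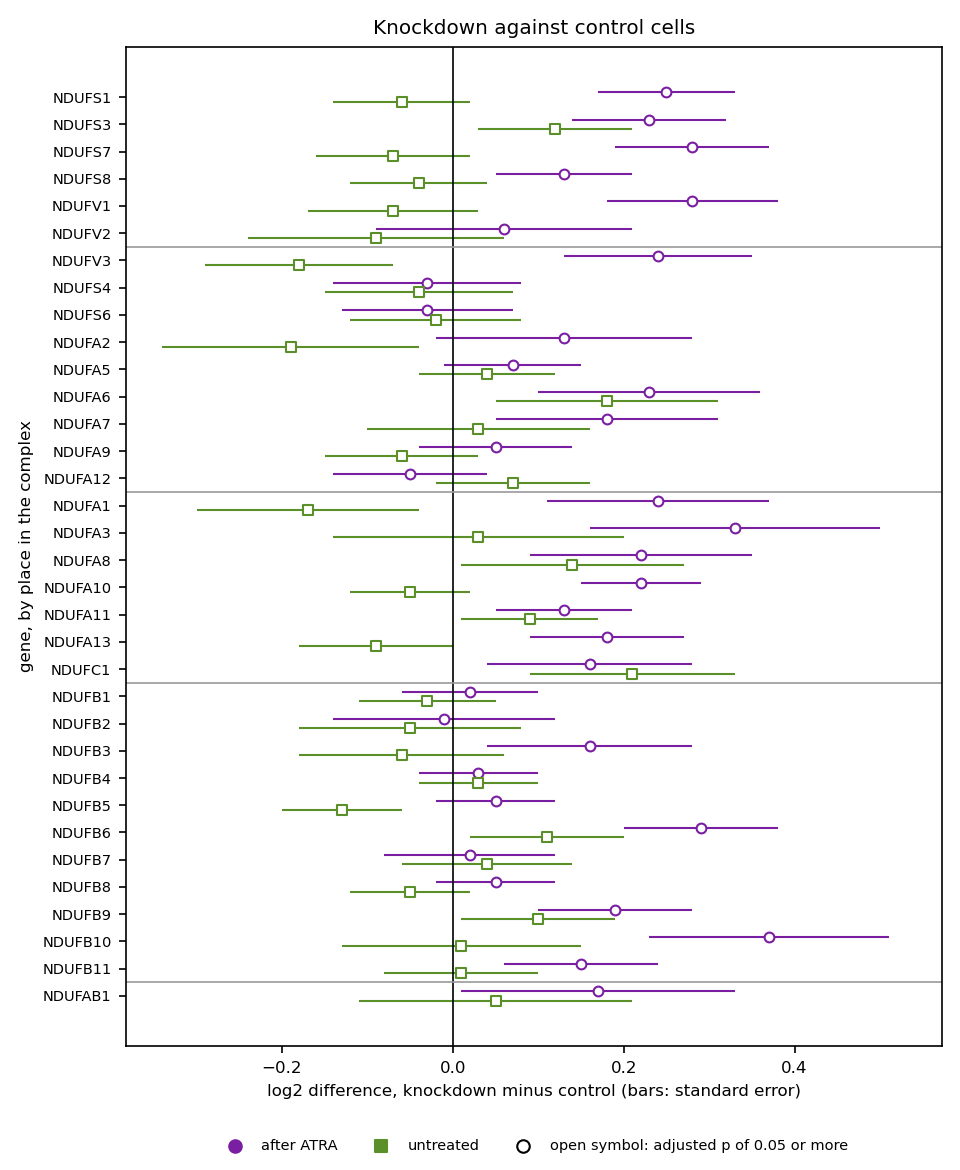
Log2 difference between knockdown and control cells (knockdown minus control, bars of 1 standard error, 3 arrays an arm) for each complex I gene, after ATRA (purple circles) and untreated (green squares), with open symbols where the adjusted p was 0.05 or more. Every symbol is open, the untreated differences lie on both sides of 0 and 30 of the 34 differences after ATRA lie right of it.

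The difference between the responses was tested directly as the change in knockdown cells minus the change in control cells. Limma called 0 of 34 genes, as of all genes (0% called), and 6 of 34 had an unadjusted p under 0.05, all of them above 0 (5.71% of all genes). The median was 0.13, and 29 of 34 values were above 0, as were 48.7% of those of all genes. With the genes of lowest mean left out, the median was 0.13 for the 34 genes and 0.07 over all genes left in. NDUFS7 had a difference of 0.35 (95% interval 0.08 to 0.63, adjusted p = 0.277, limma), NDUFS1 of 0.31 (95% interval 0.07 to 0.55, adjusted p = 0.278) and NDUFV3 of 0.41 (95% interval 0.08 to 0.74, adjusted p = 0.278). These 3 had the smallest p-values. At the other end, NDUFA12 differed by -0.12 (95% interval -0.40 to 0.16, adjusted p = 0.637). The 10 genes called lower in control cells and not in knockdown cells are therefore not shown to differ in their response. This contrast, the knockdown difference after ATRA and the responses above share arrays, so their values are not separate evidence. After quantile normalization the median difference between responses was 0.05.

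The other genes of the respiratory chain were counted in the same fit. There, 14.7% of all genes were called lower with ATRA in knockdown cells and 20.9% in control cells, and 10.1% and 15.2% higher. Without the genes of lowest mean, 22.1% and 31.1% of all genes left in were called lower. Complex I assembly factors build the complex and do not stay in it, and 11 of 18 measured were called lower with ATRA in knockdown cells and 17 of 18 in control cells, none higher, with medians of -0.47 and -0.62. NDUFAF4 stood at 10.06, 9.99 and 9.96 after ATRA in knockdown cells, against 11.02, 11.05 and 11.11 untreated, and at 9.87, 10.06 and 9.68 in control cells after ATRA, against 11.18, 10.70 and 11.15 untreated. It fell by 1.06 in knockdown cells (adjusted p = 0.000372, limma) and by 1.14 in control cells (adjusted p = 0.000111). NUBPL, which delivers iron-sulfur clusters to complex I, fell by 0.68 in knockdown cells and by 0.98 in control cells. NDUFAF5, which modifies the core subunit NDUFS7, fell by 0.77 in knockdown cells and by 0.98 in control cells.

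Complex II, which feeds electrons from succinate, had 1 of 3 measured subunits called lower in knockdown cells and 3 of 3 in control cells. For this and the next complexes, the shares of all genes called lower were 14.7% in knockdown cells and 20.9% in control cells. SDHA, its flavoprotein, fell by 0.45 in knockdown cells and by 0.66 in control cells. SDHC and SDHD changed by -0.13 and -0.27 in knockdown cells without a call and fell by 0.33 and 0.40 in control cells. Of 8 complex III subunits, 5 were called lower in knockdown cells and 8 in control cells, with medians of -0.30 and -0.53. CYC1, cytochrome c1, fell by 0.42 in knockdown cells and by 0.72 in control cells. UQCRC1 and UQCRH fell by 0.27 and 0.33 in knockdown cells and by 0.52 and 0.59 in control cells. Complex IV had 1 of 11 called lower in knockdown cells and 8 of 11 in control cells, with medians of -0.09 and -0.31. Medians over all genes were -0.03 and 0.05, and the knockdown count of complex IV did not exceed the share of all genes. COX7B fell by 0.79 in knockdown cells (adjusted p = 0.00517, limma) and by 0.97 in control cells (adjusted p = 0.0011). COX7A2 and COX7C changed by -0.21 and -0.07 in knockdown cells without a call and fell by 0.49 and 0.39 in control cells. Of 14 ATP synthase subunits, 9 were called lower in each kind of cell, with medians of -0.32 in knockdown cells and -0.47 in control cells. ATP5PB, ATP5ME and ATP5MC3 fell by 0.32, 0.50 and 0.34 in knockdown cells and by 0.55, 0.71 and 0.56 in control cells. None of these genes was called higher with ATRA in either kind of cell, and differences between the complexes were not tested.

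**Figure D5:**
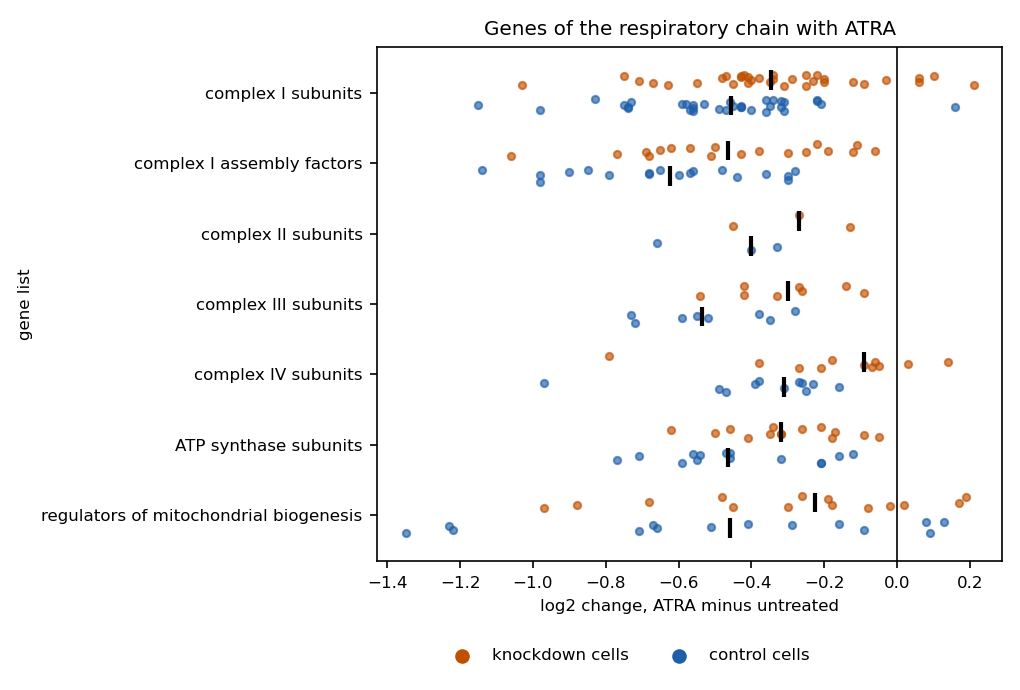
Log2 change with ATRA (ATRA minus untreated) of each measured gene of 7 lists, as points, in knockdown cells (orange, upper row of each list) and control cells (blue, lower row), with the list's median as a black bar. All medians lie left of 0, from -0.47 to -0.09 in knockdown cells and from -0.62 to -0.31 in control cells.

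Regulators of mitochondrial biogenesis act on mitochondrial DNA or on nuclear genes of the respiratory chain. Of these, 7 of 14 were called lower in knockdown cells, 8 of 14 in control cells and 0 higher. Among all genes, 14.7% and 20.9% were called lower and 10.1% and 15.2% higher. TFAM, which packs and transcribes mitochondrial DNA, stood at 9.77, 9.75 and 9.78 after ATRA in knockdown cells, against 10.19, 10.26 and 10.28 untreated. In control cells TFAM stood at 9.55, 9.54 and 9.44 after ATRA, against 10.24, 10.12 and 10.19 untreated. It fell by 0.48 in knockdown cells (adjusted p = 0.000569, limma) and by 0.67 in control cells (adjusted p = 6.85e-05), with no overlap of ATRA and untreated arrays. TFB1M, a methyltransferase of mitochondrial ribosomal RNA, fell by 0.30 in knockdown cells and by 0.66 in control cells. TWNK, the helicase of mitochondrial DNA, fell by 0.88 in knockdown cells and fell by 1.23 in control cells. The genes of the factors whose motifs were searched were not called. NRF1 changed by -0.08 in knockdown cells and -0.16 in control cells, GABPA by 0.02 and 0.13, and YY1 by -0.19 and -0.09. GABPB1, the beta subunit that joins GABPA in GABP, fell by 0.45 in knockdown cells and by 0.71 in control cells.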

How the data were processed

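Total RNA of 12 NB4 samples was hybridised as biotin-labelled cDNA to Affymetrix ST arrays. The authors deposited log2 values made with RMA and limma, per the submitters' processing notes, without versions. They lay between 2.667 and 14.63, array medians lay between 7.731 and 7.809, and they were used as deposited. The number of arrays limits the precision. Of the probe sets, 19158 were annotated to 1 gene and used, 1388 to several genes, and 11775 were not named in the annotation used. Identifiers of 19128 matched RefSeq.

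Groups came from the labels, with 3 arrays an arm. The tests used limma 3.58.1 under R 4.3.3 (4 arm means, 8 residual degrees of freedom, eBayes), with two-sided p-values adjusted by Benjamini-Hochberg over all 18404 genes and a threshold of 0.05. The fit was tested on simulated arrays with independent noise for each gene. These held no effect of line and no array that stood apart, so the simulation does not bear on such features of the data. The smallest two-sided p that permuting 3 against 3 arrays allows is 0.1. Alternatives were quantile normalization, leaving out the 33.3% of genes with the lowest means, array weights, a trend in eBayes, the mean of all probe sets of a gene, the line as a block, the scrambled and shRNA1 arrays alone, each array left out and, chosen after seeing the data, the probe set with the lowest mean.

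Genes shown in full were the core subunits, up to 6 risers and 6 fallers with the strongest ATRA change among those called in each kind of cell, the 3 with the smallest p in each knockdown contrast and in the difference of responses and, from each other list, up to 3 with the smallest p in control cells. NDUFB1, NDUFA13, NDUFA12, GABPB1 and the 3 motif factors were named outside this rule, after their values were seen. The members and lists were chosen with earlier results of these data known. Arrays of an arm had at most 8 identical values in any pair and correlated at 0.979 to 0.995. RefSeq names pseudogenes for 17 of the 34 genes, which makes them less certain, and called counts were 11 of 17 with and 10 of 17 without such pseudogenes in knockdown cells and 15 of 17 in both sets in control cells.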

Additional observations from a re-analysis of the deposited data

How the results depend on the processing

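The negative median change with ATRA held under all 21 alternatives in both kinds of cells, and no member was called in either knockdown contrast or in the difference of responses under those that could be fitted. Under quantile normalization the members called lower in control cells numbered 16, with 1 higher (NDUFB1), where 16.7% of all genes were called lower and 13.8% higher, and the medians were -0.31 in knockdown cells, -0.34 in control cells, 0.09 for knockdown minus control after ATRA and 0.05 for the difference of responses. With scrambled and shRNA1 arrays only, 7 members were called lower in knockdown cells and 14 in control cells, where 7.69% and 12.1% of all genes were, and the difference of responses had a median of 0.07. The median of knockdown minus control before ATRA changed sign to 0.03 with those arrays. It was 0.01 without the untreated scrambled replicate 1 array and 0.02 without the untreated shRNA1 replicate 1 array.

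With each array left out in turn, members called lower ranged from 13 (without the shRNA2 ATRA array) to 22 in knockdown cells and from 24 to 29 in control cells, while the shares of all genes called lower ranged from 10.9% to 15.6% and from 16.2% to 21.1%. The medians ranged from -0.37 to -0.30 in knockdown cells, from -0.48 to -0.43 in control cells, from -0.05 to 0.02 before ATRA, from 0.12 to 0.21 after ATRA and from 0.09 to 0.18 for the difference of responses. The cause of these shifts was not tested. NDUFA5, NDUFA8, NDUFA11, NDUFB6, NDUFB9 and NDUFAB1 were called lower in both kinds of cells under all 21 alternatives, and 14 members were in control cells. With the probe set of the lowest mean, NDUFS4 changed by 0.31 in knockdown cells.

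The labels' line and replicate numbers were tried as a block. Deviations of same-line untreated and ATRA arrays correlated at 0.161, 0.226 and 0.119 in shRNA1 replicates 1 and 2 and shRNA2. They correlated at -0.108, 0.193 and -0.173 in scrambled replicates 1 and 2 and wild type cells. The main fit therefore did not take the numbers as pairs. With a fixed replicate block 19 members were called lower in knockdown cells and 29 in control cells (14% and 20.4% of all genes). With a random one (correlation 0.0354) they numbered 22 and 31 (15.2% and 21.3% of all genes). A fixed block cannot be set for knockdown against control, since each line is of 1 kind.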
